A study of Rattus norvegicus with 90 samples.

Results

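The expression of transcripts in rat cardiomyocytes exposed to the high dose of thioacetamide-S-oxide for 24 h is compared here with that in vehicle cultures of the same time. The libraries were those labelled as cardiomyocytes at 24 h, with 5 at the high dose and 5 with vehicle, which makes 10 of the 90 libraries of the series. The series also holds hepatocytes and renal tube epithelial cells, a low dose of each cell type and a 9 h time point, so that it has 18 conditions of 5 libraries. All cells came from Sprague-Dawley rats, which carry no engineered allele, and the cardiomyocytes are labelled as heart tissue. The high dose was 1.50 mM and the low dose 0.50 mM in cardiomyocytes. Exposure of all 3 cell types began after 18 h more in culture. The vehicle was maintenance medium, and the labels name that medium for hepatocytes and renal cells only. How the cardiomyocytes were isolated, the age of the animals and the number of animals behind the libraries are not given in the sources used here, so that a p-value below measures the spread between these libraries, which may be technical.

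Thioacetamide is a liver toxicant that does little harm until it is oxidised. Its first product is thioacetamide-S-oxide, and a second oxidation of the sulphur gives the reactive S,S-dioxide, which binds to lysine side chains of proteins. The oxidation is carried out by cytochrome P450 and flavin-containing monooxygenase enzymes, which are abundant in hepatocytes and much less so in heart muscle. Cardiomyocytes are the contracting muscle cells of the heart, and much of their messenger RNA codes for sarcomere, calcium handling and mitochondrial proteins.

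The deposited tables give estimated counts for 40071 transcripts with Ensembl identifiers. The files do not pair the identifiers with gene names and 0 of them could be matched to names, so the cell type could not be checked against named markers, and transcripts are described in groups that were set from other libraries. Cardiomyocyte-enriched transcripts were therefore taken as those that were at least 8 times higher in the vehicle cardiomyocytes at 9 h than in both other cell types. Together they held 11.5% to 12.1% of the transcript counts in the 5 vehicle libraries at 24 h, against 0.415% to 0.431% in vehicle renal cells and 0.0476% to 0.0540% in vehicle hepatocytes at 9 h. The low shares in the other cell types were fixed by the choice, since the same 9 h libraries defined the set, so they are no check of the labelled cell type.

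High-dose library MS-178 stood apart from the other 4. It had 14497025 estimated counts and 17772 transcripts detected (a rounded count of at least 1), against 27794880 to 44522293 counts and 22427 to 23352 transcripts. After random thinning of every library to its 13391268 transcript counts, the other 4 still had 21072 to 21441 transcripts, so the gap remained at equal depth. Of the transcripts tested below, 1338 were at 0 in MS-178 (7.74%), against 0.509% to 0.914% in the other high-dose libraries. The 1141 that were at 0 in MS-178 alone among the high-dose libraries were low in level, with a median of 0.14 log2 CPM (CPM, a count scaled to 1000000 transcript counts per library). Vehicle library MS-168 also differed from its group. Spearman's rho between it and each of the other 4 was 0.945 to 0.969 across 8337 well-expressed transcripts, against 0.984 to 0.992 among those 4. Its rho with the low-dose libraries at 24 h was 0.817 to 0.984, with a median of 0.971 and the highest value with MS-174. Its median rho with vehicle was 0.955 and the highest 0.969. By mean absolute difference it was no closer to the low dose, at 0.323 against 0.319 from vehicle. Low-dose library MS-174 itself carried levels near those of vehicle, as given below. Libraries MS-178 and MS-168 were kept, and the main counts are also given without them.

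Measures of whole libraries shifted with the dose. The 100 most abundant transcripts took 26.3% ± 0.514 of the transcript counts at the high dose and 27.7% ± 0.529 in vehicle (SD, n = 5 each, p = 0.00794 in a two-sided exact permutation test, the smallest p that 5 against 5 allows, Benjamini-Hochberg adjusted over 5 measures 0.0198). The single most abundant transcript, which was the same in all 10 libraries and belonged to the cardiomyocyte-enriched set, took 2.61% ± 0.247 against 3.57% ± 0.214 (SD, n = 5 each, exact p = 0.00794, adjusted 0.0198). The share of counts on transcripts, as opposed to the unannotated genomic intervals that the tables also list, was 90.8% ± 2.02 at the high dose and 94.1% ± 0.913 in vehicle (SD, n = 5 each, exact p = 0.0159, adjusted 0.0264). Total counts (exact p = 0.651) and transcripts detected (exact p = 0.944) did not pass the test. The groups overlapped in the share on transcripts, where high-dose library MS-179 (93.5%) exceeded vehicle library MS-169 (92.5%). In these bulk libraries, fewer cells of a type and less RNA per cell cannot be told apart.

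The high dose changed the level of 2144 transcripts at 24 h, with rises and falls in nearly equal number. Rounded estimated counts were tested with edgeR's quasi-likelihood test, and a differentially expressed gene (DEG) is here a transcript whose p-value, adjusted by the Benjamini-Hochberg method, was 0.05 or less and whose fold change on the natural-log scale was 0.41 or more in either direction (0.592 on the log2 scale). Of 17286 transcripts tested, 12.4% were DEGs, with 1039 higher (6.01%) and 1105 lower (6.39%) than in vehicle. Before adjustment, the p-value was under 0.05 for 6952 transcripts (40.2%), and the mean absolute log2 fold change over all transcripts tested was 0.40. The median log2 fold change was 0.003. The scaling of the libraries to each other favours a median near 0, so it is no measure of a change in total RNA.

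Most changes were moderate in size, and the largest ones were rises. The absolute log2 fold change of the DEGs had a median of 1.03, with 10% of them at or below 0.65 and 10% at or above 2.14. A change of at least 2-fold was seen for 541 rises and 573 falls, and rises and falls of at least 4-fold made up 6.39% and 6.02% of the DEGs. Past 8-fold, 60 transcripts had risen and 22 had fallen. The high-dose and vehicle libraries did not overlap for 1906 of the DEGs (88.9%), where the same held for 26.3% of all transcripts tested (12.9% with the high dose above and 13.4% below). The share is high among DEGs by selection, since a test of the same libraries chose them. In 3 of the DEGs that rose, all vehicle libraries were at 0, and no DEG that fell was at 0 in all high-dose libraries.

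**Figure D1:**
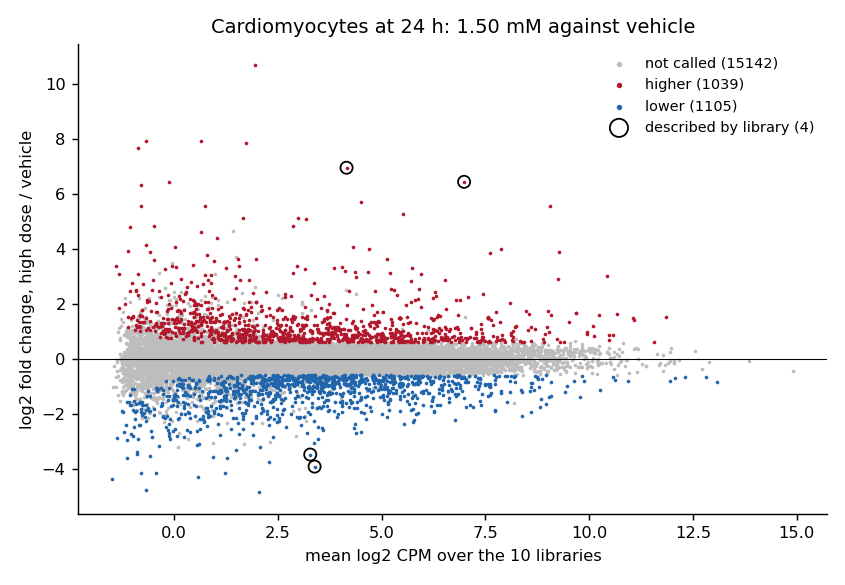
Log2 fold change of each of the 17286 tested transcripts (high dose against vehicle at 24 h, vertical) against its mean log2 CPM over the 10 libraries (horizontal). Red and blue points are the 1039 higher and 1105 lower DEGs, grey points the other 15142 transcripts, and circles the 4 transcripts described by library; the largest rises exceed the largest falls in size.

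Leaving out library MS-178 gave more calls, 2467 of 17668 transcripts tested (14.0%), with 1134 higher (6.42%) and 1333 lower (7.54%). Of the 2144 DEGs, 2003 (93.4%) were called in the same direction without it, and 464 others were gained. With MS-168 left out as well, a choice made after seeing the data, 2546 were called, 1221 higher and 1325 lower. Of the 2144 DEGs, 4.9% were at 0 in MS-178.

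The share of transcripts called varied with their level. In the lowest quartile by mean level (at most 1.79 log2 CPM), 8.35% of the transcripts were higher and 7.13% lower, and in the highest quartile (at least 5.44 log2 CPM) 4.88% were higher and 5.09% lower. The median absolute log2 fold change of the called transcripts was 1.35 in the lowest quartile and 0.905 in the highest. Among the 100 most abundant transcripts, 12 were higher and 9 lower, beside 6.01% and 6.39% of all transcripts tested, and 5 of the 9 belonged to the 14 of these that were cardiomyocyte-enriched. The single most abundant transcript was not a DEG, as its log2 fold change of -0.46 (SE 0.065, edgeR adjusted p = 0.000304) was under the threshold in size. By transcript length, the shortest quartile (up to 1400 bases) had more rises than falls, 6.34% against 4.53%, and the other quartiles had more falls than rises.

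The 4 transcripts described next are the 2 largest rises and the 2 largest falls among the 1031 DEGs whose groups did not overlap and whose mean level was 3 log2 CPM or more. Their values in these 10 libraries are what chose them, so the folds describe the extremes and support nothing further. Their function is not known here because their genes are not named.

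ENSRNOT00000032185 (803 bases) was nearly absent from vehicle cultures and had the largest rise among these DEGs in the main fit. Its level was 0.610, 0.621, 0, 0 and 0.243 CPM in vehicle libraries MS-166 to MS-170, from 14, 14, 0, 0 and 8 estimated counts. In high-dose libraries MS-176 to MS-180 it was 38.7, 30.4, 37.9, 35.3 and 34.3 CPM. Every high-dose library, MS-178 included, lay far above the vehicle libraries, and the high-dose values were close together. The log2 fold change was 6.94 (SE 0.449, edgeR adjusted p = 8.27e-07), and it rests on few counts in vehicle. With limma on log2(CPM + 0.5) it was 5.58, and 5.41 with library weights. In both limma fits ENSRNOT00000044944 rose more (6.21 and 6.11). Each vehicle hepatocyte library at 9 h held at least 135.9 CPM of this transcript, and it belongs to the set that is enriched in hepatocytes.

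ENSRNOT00000044944 (1035 bases) was the other extreme rise, from a low but measurable level. It stood at 2.61, 1.997, 3.44, 3.27 and 3.09 CPM in the vehicle libraries and at 192, 201, 285, 307 and 273 CPM in the high-dose libraries, in the same order. The lowest high-dose value exceeded the highest vehicle value by a wide margin. Its log2 fold change was 6.43 (SE 0.195, edgeR adjusted p = 2.49e-09), a fold of 86.1. This transcript was also enriched in hepatocytes, where vehicle libraries at 9 h held 810 to 1021 CPM, so the exposed cardiomyocytes stayed below these 9 h libraries.

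ENSRNOT00000010748 (1701 bases), a cardiomyocyte-enriched transcript, had the largest fall among these DEGs in the main fit. Its vehicle values were 20.3, 16.7, 19.6, 19.2 and 21.2 CPM, and its high-dose values 1.41, 1.17, 1.57, 1.09 and 1.24 CPM, from 21 to 56 estimated counts. Both groups were tight and far apart. The log2 fold change was -3.92 (SE 0.117, edgeR adjusted p = 2.14e-09), a 15.1-fold lower level. Its order against ENSRNOT00000018934, described next, depended on the fit. ENSRNOT00000018934 fell further with limma on log2(CPM + 0.5) (-3.93 against -3.48). The same held without MS-176 (-4.37 against -3.97) or MS-177 (-3.912 against -3.903).

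ENSRNOT00000018934 (1194 bases) belongs to the transcripts that cardiomyocytes share with renal cells. It was at 21.7, 17.5, 11.2, 20.6 and 17.6 CPM in vehicle, and at 4.08, 3.32, 0, 0 and 0 CPM at the high dose. The 2 high-dose libraries with reads (MS-176 and MS-177) had at least 82 estimated counts, and the other 3 had none. The log2 fold change was -3.48 (SE 0.949, edgeR adjusted p = 0.0167), and DESeq2 did not call it (-3.58, adjusted p = 0.0794). Kallisto shares out reads that fit several transcripts, so the count of any single transcript is an estimate.

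**Figure D2:**
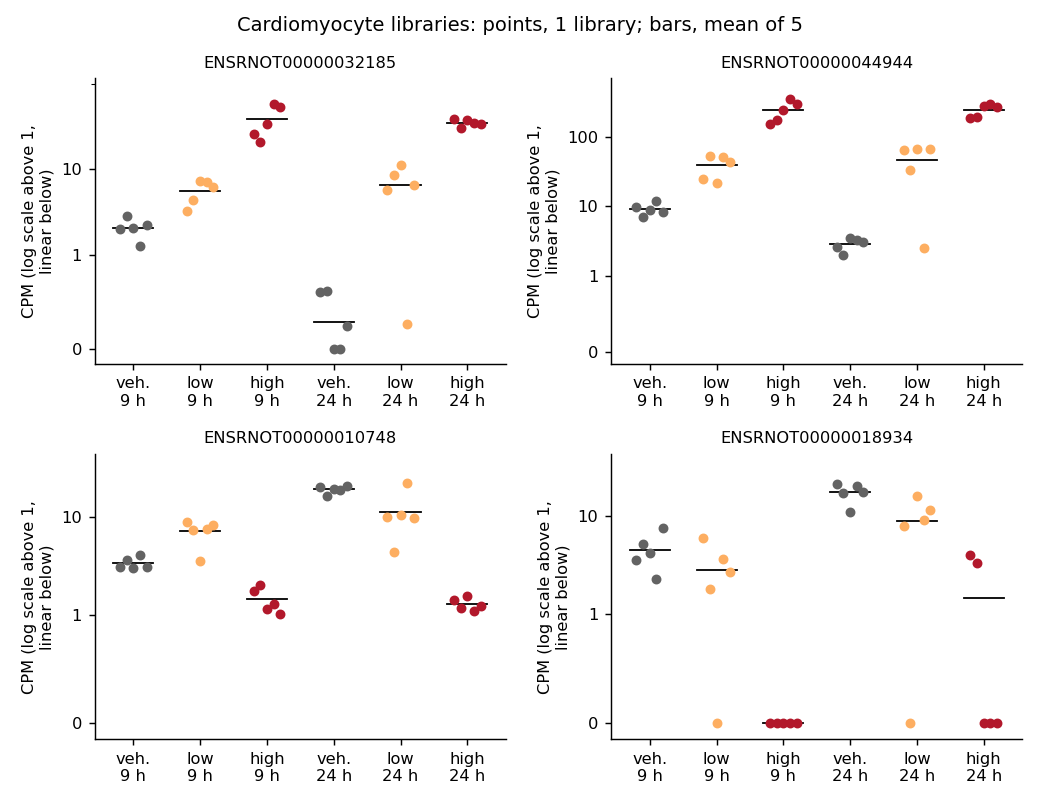
CPM of the 4 described transcripts in each of the 30 cardiomyocyte libraries, by dose and time (vertical axis logarithmic above 1 CPM and linear below). Points are libraries and bars the mean of 5; at 24 h the high-dose points are apart from the vehicle points in all 4 panels, and 1 of the low-dose libraries at 24 h (MS-174) lies at the vehicle level in the upper panels.

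Transcripts that are typical of cardiomyocytes fell more often than transcripts at large. Membership was set from vehicle libraries at 9 h, which are not among the 10 compared, and 609 of the 617 cardiomyocyte-enriched transcripts passed the filter on low counts. Of these, 200 fell (32.8%) and 59 rose (9.69%), beside 6.39% and 6.01% of all transcripts tested. Their median log2 fold change was -0.40, beside 0.003 over all. In 267 of them (43.8%), every high-dose library lay below every vehicle library, where 13.4% of all transcripts did. Without MS-178, 226 fell and 61 rose. With a rule of 4-fold in place of 8-fold, 1029 transcripts were enriched, and 288 fell and 100 rose among the 1017 tested. A group was described by its counts only and was not given a test.

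The summed share of these transcripts gives their weight in each library. It was 12.1%, 11.8%, 11.5%, 11.9% and 12.1% of transcript counts in vehicle libraries MS-166 to MS-170, and 9.22%, 9.07%, 8.48%, 7.90% and 8.40% in high-dose libraries MS-176 to MS-180. No high-dose library reached the lowest vehicle library, and MS-178 lay in the middle of its group. A few abundant members carried most of this change. The mean share fell by 3.25 percentage points, of which 10 transcripts gave 78.1% and the largest alone 29.5%, while 192 of the 617 members had a higher mean at the high dose than in vehicle.

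Transcripts that cardiomyocytes share with renal cells, at least 8 times higher in both than in hepatocytes and within 4 times of each other, moved the same way to a lesser extent. Of 1221 such transcripts 1210 were tested, and 13.0% fell and 7.77% rose (29.7% and 15.4% with no fold threshold, beside 15.4% and 15.3% over all), with a median log2 fold change of -0.13. Broadly expressed transcripts, at 5 CPM or more in all 3 cell types and within 2-fold of each other, seldom passed both the p-value and the fold threshold. Of the 5678 in this class, 1.0% fell and 2.24% rose, beside 6.39% and 6.01% of all transcripts tested, with a median log2 fold change of 0.03. These low shares depended on the fold threshold, since with none 10.4% were lower and 16.8% higher, beside 15.4% and 15.3% of all transcripts tested. These transcripts took 43.2% to 44.1% of the counts in vehicle and 45.9% to 47.1% at the high dose, so their summed share was higher in every high-dose library.

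Transcripts typical of the other cell types were also followed, in sets added after the data were seen. Of the 953 hepatocyte-enriched transcripts, 294 passed the filter, which favours members that are high in 1 of the groups. Of these, 70 rose (23.8%) and 51 fell (17.3%), beside 6.01% and 6.39% of all transcripts tested, and nothing is read from the difference. With no filter beyond 1 count, 12.3% rose and 6.13% fell, beside 3.66% and 3.9% of the 28096 transcripts then tested. Their summed share was 0.295% to 0.309% of transcript counts in the vehicle libraries and 0.640% to 0.693% in the high-dose libraries, against 17.5% to 19.0% in vehicle hepatocytes at 9 h. The mean share rose by 0.355 percentage points, of which 10 transcripts gave 94.3% and the largest alone 28.7%. ENSRNOT00000044944 and ENSRNOT00000032185 belong to the set, and neither is this largest contributor. Among all 953 members, 326 had a lower mean at the high dose and 490 a higher one. Of the 667 renal-enriched transcripts 232 passed the same filter. Of these, 42 rose (18.1%) and 30 fell (12.9%), beside 6.01% and 6.39% of all transcripts tested, and nothing is read from this difference either. The summed share of the renal-enriched set was 0.162% to 0.181% in vehicle and 0.180% to 0.196% at the high dose, with an overlap between the groups. The part of other cells in these changes was not tested.

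**Figure D3:**
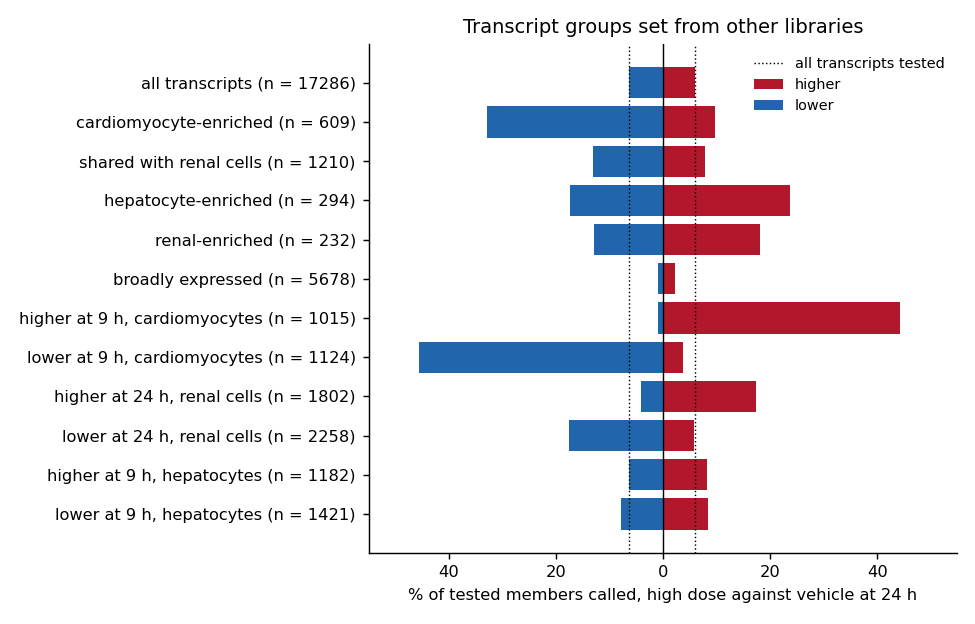
Percent of the tested members of each transcript group that were lower (blue, to the left) or higher (red, to the right) in high-dose than in vehicle cardiomyocytes at 24 h, with the number tested. Dotted lines mark all transcripts tested (6.39% lower, 6.01% higher); the cardiomyocyte-enriched group extends furthest to the left among the groups based on cell type, with 32.8% lower.

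**Figure D4:**
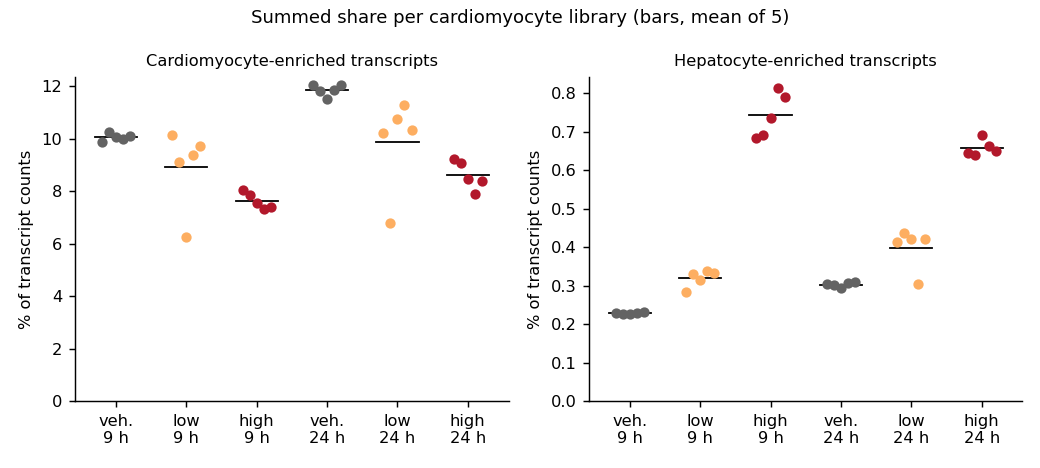
Summed share of transcript counts held by cardiomyocyte-enriched (left) and hepatocyte-enriched (right) transcripts in each cardiomyocyte library, by dose and time. Points are libraries and bars the mean of 5; at 24 h the high-dose libraries lie between 7.90% and 9.22% on the left, below the vehicle libraries at 11.5% to 12.1%, and above them on the right.

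The same dose was also measured at 9 h, in other libraries, which asks whether the change at 24 h was already present. At 9 h the high dose gave 2257 DEGs (12.6% of 17871 transcripts tested), 1112 higher (6.22%) and 1145 lower (6.41%). Of the DEGs at 24 h, 962 were DEGs at 9 h in the same direction (449 up and 513 down). This is 44.9% of the DEGs at 24 h and 42.6% of those at 9 h. Pearson's r between the log2 fold changes of both times was 0.538 across 17108 transcripts, which are not independent replicates.

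The transcripts that fell or rose at 9 h were followed to 24 h. Of the 1145 DEGs that fell at 9 h, 1124 were tested at 24 h, where 513 were lower (45.6%), 570 were not called and 41 were higher, with a median log2 fold change of -0.65. Of the 1112 that rose at 9 h, 1015 were tested at 24 h, where 449 were higher (44.2%), 556 were not called and 10 were lower, with a median of 0.62. Over all transcripts tested at 24 h, 6.39% were lower and 6.01% higher. Without MS-178, 559 of 1132 were lower (49.4%) in the first set and 479 of 1051 higher (45.6%) in the second. The 41 opposite calls depended on single libraries, with 21 to 27 left without MS-166, MS-167, MS-168, MS-170, MS-176 or MS-177 and 18 with all cardiomyocyte groups in one fit. The 10 calls in the other direction became 5 or 6 without MS-166, MS-179 or MS-180.

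The difference between the times was tested itself, as the interaction of dose and time over the 20 libraries. With the same thresholds, it passed for 1414 of 18288 transcripts (7.73%), with 793 responses more positive (4.34%) and 621 more negative (3.4%) at 24 h than at 9 h. Of these, 513 were DEGs at 24 h only, 340 at 9 h only, 51 at both times in opposite directions and 336 at neither, and the rest were DEGs at both times in the same direction. Among the 1088 DEGs of 24 h that were tested but not called at 9 h, 499 passed the interaction test, so for the other 589 no difference between the times was shown. Without MS-178, 1582 transcripts passed.

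The vehicle cultures themselves changed between 9 and 24 h, and this bears on what the falls are measured against. Vehicle libraries at 24 h differed from those at 9 h in 1303 of 16921 transcripts tested (850 higher and 453 lower at 24 h). Among the 1105 transcripts that the high dose lowered at 24 h, the median difference between the times was 0.53 log2 CPM in vehicle and 0.02 at the high dose. Among the 1039 that it raised, the median difference was -0.37 in vehicle and -0.01 at the high dose. Over all 17286 transcripts tested, the medians were -0.04 in vehicle and -0.11 at the high dose. In both sets the vehicle level had moved between the times in the direction away from the high dose. The high-dose medians were near 0 in both sets, slightly above that over all transcripts. As the vehicle and high-dose libraries at 24 h chose these transcripts, the differences of both groups are a description and were not tested.

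The described transcripts were chosen for their difference at 24 h in these libraries, which favours a larger difference at 24 h than at 9 h, so their levels at both times are a description with no test of the change. ENSRNOT00000010748 stood at 3.003 to 4.15 CPM in vehicle at 9 h and 16.7 to 21.2 CPM at 24 h, and at 1.02 to 2.01 CPM and 1.09 to 1.57 CPM at the high dose. The log2 fold change was -1.28 at 9 h (SE 0.209, edgeR adjusted p = 0.000405) in libraries that did not choose the transcript. ENSRNOT00000044944 went from 7.10 to 12.1 CPM in vehicle at 9 h down to 1.997 to 3.44 CPM at 24 h, and its high-dose levels were 159.2 to 358.1 CPM and 192 to 307 CPM. ENSRNOT00000032185 had 1.25 to 2.84 CPM in vehicle and 21.1 to 58.1 CPM at the high dose at 9 h. ENSRNOT00000018934 was listed at 0 in all 5 high-dose libraries at 9 h and at 2.27 to 7.68 CPM in vehicle.

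The summed share of cardiomyocyte-enriched transcripts was higher at 24 h than at 9 h in both groups. At 9 h it was 9.89% to 10.3% in vehicle and 7.34% to 8.05% with the high dose. The mean at 9 and 24 h was 10.1% ± 0.137 and 11.9% ± 0.220 in vehicle, and 7.64% ± 0.303 and 8.61% ± 0.536 with the high dose (SD, n = 5 each). In vehicle the times did not overlap, and with the high dose 4 of the 5 libraries at 24 h lay above every library at 9 h. These differences between the times were not tested. The vehicle libraries at 9 h chose these transcripts. The hepatocyte-enriched share at 9 h was 0.226% to 0.231% in vehicle and 0.684% to 0.813% at the high dose.

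**Figure D5:**
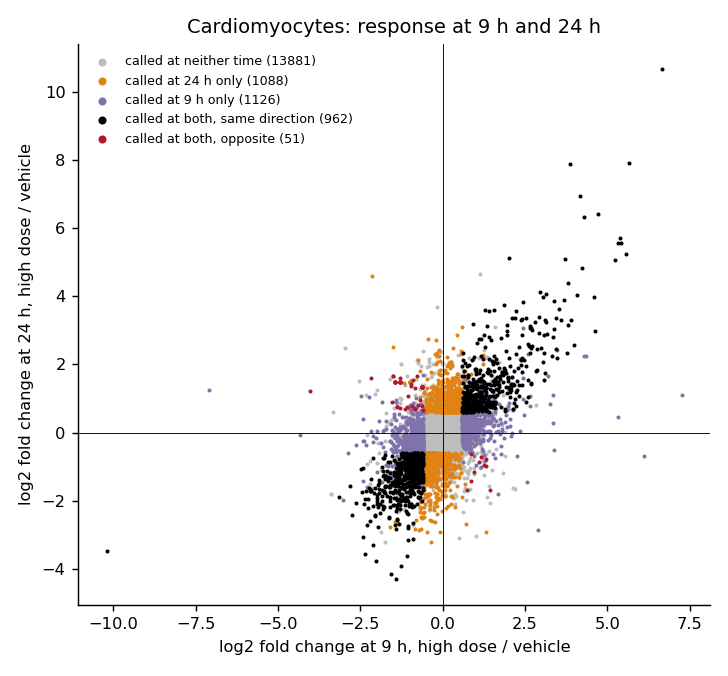
Log2 fold change of the high dose against vehicle at 24 h (vertical) and at 9 h (horizontal) for the 17108 transcripts tested at both times in cardiomyocytes. Black points are the 962 DEGs of both times with the same direction, red points the 51 with opposite directions, orange and purple points DEGs of 24 h only and of 9 h only, and grey points the rest.

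Whether the response grew with dose was asked by comparing the high with the low dose directly, since both share their vehicle libraries. Low-dose libraries MS-172 and MS-174 stood apart. Library MS-172 had 11519925 estimated counts, 17044 transcripts detected and 51.6% of its transcript counts in the 100 most abundant transcripts, against 27.2% to 30.6% in the other 4. Library MS-174 carried levels near those of vehicle, with 2.46 CPM of ENSRNOT00000044944 against 33.3 to 68.5 CPM in the other 4 low-dose libraries, 0.274 CPM of ENSRNOT00000032185 against 5.77 to 11.3 CPM, and 22.3 CPM of ENSRNOT00000010748 against 4.37 to 10.6 CPM. Its highest Spearman correlation with any library of cardiomyocytes at 24 h was with vehicle library MS-168, at 0.984. Both libraries were kept under their labels.

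The high dose differed from the low dose in 964 of 17098 transcripts (5.64%), with 361 higher (2.11%) and 603 lower (3.53%). This count depended on single libraries. It was 1465 without MS-172, 631 without MS-174, and 592 to 600 without MS-176, MS-177 or MS-180. DESeq2 called 1756. With MS-172 and MS-174 both left out it was 1054, 451 higher and 603 lower, and with MS-178 left out as well 1364, all choices made after seeing the data. Falls thus outnumbered rises with and without MS-172 and MS-174 in this comparison.

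The low dose against vehicle gave 0 DEGs in edgeR with all libraries, where 2028 of 16998 transcripts had an unadjusted p-value under 0.05 and DESeq2 called 1.02%. Leaving out both MS-172 and MS-174, also after seeing the data, gave 297 DEGs in edgeR (1.7%, with 188 higher) and 376 with DESeq2. Leaving out MS-172 alone gave 7 (0.0407%), and MS-174 alone 0.751%. Side by side, the low-dose values of 3 of the described transcripts lay between the vehicle and high-dose values in every low-dose library other than MS-174, and those of ENSRNOT00000018934 (0 to 16.1 CPM) overlapped both. ENSRNOT00000010748 had 4.37 to 10.6 CPM in these low-dose libraries, between its high-dose values of 1.09 to 1.57 CPM and its vehicle values of 16.7 to 21.2 CPM. As the high-dose libraries chose these transcripts, no test between the doses is given for them.

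The renal tube epithelial cells at 24 h, at their own high dose of 0.500 mM, allow the response to be set beside that of another cell type. They had 4793 DEGs (26.9% of 17798 transcripts tested, 12.0% higher and 14.9% lower). The cardiomyocyte and renal DEGs shared 707 transcripts that went the same way (312 up and 395 down), or 33% of the cardiomyocyte DEGs and 14.8% of the renal ones, and 204 went in opposite directions. Across 16116 transcripts Pearson's r of the log2 fold changes was 0.305. The interaction of exposure and cell type passed for 4086 of 19306 transcripts (21.2%), with 2179 responses more positive (11.3%) and 1907 more negative (9.88%) in cardiomyocytes. The doses in this comparison differ 3-fold, and the part of the dose in these differences was not tested. At 0.50 mM, which both cell types received for 24 h, the counts in cardiomyocytes are those given above for the low dose.

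The extreme rises were not particular to cardiomyocytes. In renal cells ENSRNOT00000044944 had 8.83 to 11.6 CPM in vehicle and 279 to 293 CPM at the high dose (log2 fold change 4.77, SE 0.097, edgeR adjusted p = 1.32e-10). ENSRNOT00000032185 had 0 to 1.70 CPM in vehicle and 16.2 to 41.2 CPM at the high dose in renal cells (log2 fold change 5.24, SE 0.575, edgeR adjusted p = 2.18e-05). The cardiomyocyte libraries chose both transcripts, so the sizes in the 2 cell types were not compared by a test. ENSRNOT00000018934 was listed at 0 in all 5 high-dose renal libraries and at 0.466 to 5.28 CPM in vehicle. ENSRNOT00000010748 was at most 0.635 CPM in any vehicle or high-dose renal library at 24 h.

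Most renal DEGs were not called in cardiomyocytes. Of the 1802 transcripts that rose in renal cells and were tested in cardiomyocytes, 312 rose (17.3%), 75 fell (4.16%) and 1415 were not called. Of the 2258 that fell in renal cells, 395 fell (17.5%), 5.71% rose and 1734 were not called. Over all transcripts tested in cardiomyocytes, 6.01% rose and 6.39% fell. Hepatocytes at their high dose of 0.125 mM at 9 h had 3062 DEGs (18.4% of 16607, 8.48% higher and 9.95% lower). Of the 1182 that rose there and were tested in cardiomyocytes 8.21% rose and 6.26% fell, and of the 1421 that fell there 8.37% rose and 7.81% fell. Across 14699 transcripts Pearson's r between the log2 fold changes of cardiomyocytes at 24 h and of hepatocytes at 9 h was -0.01. Both dose and time differ in this last pair.

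The genomic intervals in the tables, which belong to no transcript, were fitted on their own. Of 6634 tested, 8.03% passed the same thresholds between high dose and vehicle, 280 higher (4.22%) and 253 lower (3.81%).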

How the data were processed

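Poly-A-enriched libraries were read on an Illumina instrument with paired 150-base reads. Per the labels, the authors used Kallisto (the submitters' processing notes name kallisto 0.42.4 and Rnor_6.0), and deposited per library the estimated counts and the TPM of each target. Estimated counts of 40071 transcripts were rounded to whole numbers and tested with edgeR 4.0.16 under R 4.3.3 (filterByExpr, TMM scaling, estimateDisp, glmQLFit, glmQLFTest). P-values were adjusted by the Benjamini-Hochberg method over all transcripts tested, and only the groups compared entered a fit. The plan to sum counts per gene could not be followed, as no table matched the identifiers (0 matched), so tests were per transcript, and gene lists, markers and sequences are not reported. The SE is the log2 fold change divided by the square root of the F statistic. CPM is relative to the transcript counts of a library, without further scaling. Total estimated counts were 21218284 to 34945783 in the vehicle libraries and 14497025 to 44522293 at the high dose, and SDs cover the spread between libraries only.

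Transcripts are printed by rule, the 2 largest rises and 2 largest falls among DEGs without overlap between groups and with a mean level of 3 log2 CPM or more. The comparison, groups and rules were chosen with earlier results of these data known. Alternatives were DESeq2 1.42.0, upper-quartile normalization, other filters, limma 3.58.1 on log2(CPM + 0.5) with and without library weights, all cardiomyocyte groups in one fit, other fold thresholds, log2(TPM + 1) of the deposited TPM, and each library left out in turn. The fit of high dose against vehicle at 24 h and the interaction with time were checked on simulated counts with known changes, and the other fits were not.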

Additional observations from a re-analysis of the deposited data

Results flagged for a closer look

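Of 27 sets of 5 libraries checked for a library far from the other 4, 4 had one, where chance gives about 1 in 20. High-dose library MS-178 had the lowest number of transcripts detected in its group (17772) and the largest mean absolute log2 difference from the vehicle mean (0.847, against 0.430 to 0.459 in the other 4). In vehicle, MS-169 had the lowest share of counts on transcripts (92.5%) and MS-168 the highest share in the 100 most abundant transcripts (28.6%).

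The response to the high dose differed by a test of the difference itself in 2 comparisons. It differed between 24 h and 9 h in 1414 transcripts and between cardiomyocytes and renal cells, at unequal doses, in 4086.

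The 25095 genomic intervals of the tables, which lie outside the transcripts of the main test, also carried signal. Of 6634 tested in a fit of their own, 533 differed between high dose and vehicle at 24 h (8.03%), 280 higher and 253 lower by edgeR with the same thresholds.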

How the results depend on the processing

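The number of DEGs between high dose and vehicle stayed within 1.5 times of 2144 under every alternative that kept the fold threshold. It was 2328 with DESeq2, 2156 with upper-quartile normalization, 2126 with no filter beyond 1 count, 2141 and 2325 with limma without and with library weights, and 2027 with all cardiomyocyte groups in one fit. With each library left out in turn it was 1983 to 2467, and no DEG changed sign. With no fold threshold it was 5307 (2643 higher and 2664 lower), and with a 2-fold threshold 1114 (541 higher and 573 lower). The mean absolute log2 fold change was 0.774 with no filter beyond 1 count. Of the 609 cardiomyocyte-enriched transcripts tested, 21.2% fell and 7.06% rose by at least 2-fold, beside 573 falls and 541 rises among all 17286 tested. With single libraries left out 30.9% to 37.0% of the enriched set were called lower. Over all transcripts tested, 6.39% were lower with all 10 libraries and 7.54% without MS-178. The high against low dose comparison gave 1756 with DESeq2 and 592 to 1465 with single libraries left out. The difference in transcripts detected (high minus vehicle) ranged from -796.8 to 598.2 with single libraries left out, and turned to 598.2 without MS-178 (exact permutation p = 0.103). The log2 fold change of ENSRNOT00000018934 lost its call with DESeq2 (-3.58, adjusted p = 0.0794), and the cause was not tested. With single libraries left out it was -4.37 to -3.14 and kept its call. The other 3 described transcripts also kept their calls with single libraries left out, at 6.55 to 7.37, 6.32 to 6.51 and -3.98 to -3.86 in the order of the report. On the log2(CPM + 0.5) scale of limma, which can understate changes of low transcripts, they were 5.58, 6.21 and -3.48, and 5.41, 6.11 and -3.50 with library weights. ENSRNOT00000018934 was at -3.93 on that scale and -3.21 with library weights, called in both (limma adjusted p = 0.000932 and 0.0009). Both interaction counts stayed within 1.5 times of their value. Of 639 alternative values of 32 results, 581 kept direction and size class, and 35 of the 56 that moved did so with another fold or group threshold. No paired analysis was possible because the groups share no replicate numbers. Transcripts of low level rest on few counts.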
